A study of Mus musculus with 19 samples.

Results

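The serum amyloid A genes of the mouse are Saa1, Saa2, Saa3 and Saa4, and their mRNA levels were followed in blood leukocyte RNA of DBA/2 and B6 mice following CAWS administration. They were taken as every non-control probe that the array files name as 1 of these genes, which gave 6 of 41174 probes and 4 of 27597 genes. The genes were chosen by their processed signals over the 10 strain-by-week groups, so that their own levels and differences are given as a description without a test.

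CAWS is a mannoprotein and β-glucan fraction of Candida albicans culture medium that induces coronary arteritis in mice and is lethal to many DBA/2 mice. All animals were male, and the labels place every sample after CAWS, which was injected intraperitoneally each day, with 0 w set right after the last injection. The methods give the dose as 0 or 1 mg for each mouse, and no label names an animal without CAWS. DBA/2 mice gave 2 samples at 0 w and 2 each at 2, 4, 8 and 9 w later, and B6 mice gave 2 samples each at 0, 4 and 8 w but only 1 at 2 w and 1 at 9 w. Later weeks hold survivors only, which limits the DBA/2 groups in particular, and the methods give ages only as a range over all mice. RNA of leukocytes caught from whole blood on a filter was labelled with Cy3 and hybridized to Agilent whole mouse genome arrays. The labels call the replicates biological, but for some samples their replicate wording differs from the sample titles, which were used here. By the titles, B6 0 w replicate 2 was hybridized to 2 arrays, which were averaged into 1 of the 18 samples on 19 arrays.

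Some libraries stood apart. RNA of hepatocytes, the main cells of the liver, was measured in the B6 0 w and B6 8 w samples although they are labelled leukocytes. The summed scaled signal of 18 hepatocyte genes was 20740 to 21140 in B6 0 w, 10650 to 11020 in B6 8 w and 380 to 933 in the other 8 groups. Alb, which encodes serum albumin, had a mean processed signal of 4000 in B6 0 w and 4019 in B6 8 w, against 2.55 to 47.3 elsewhere, where processed signals are not scaled between arrays. The array of DBA/2 9 w replicate 2 had 1187 outlier spots, against 64 to 180 on the others. The log2 levels of replicates differed over 11536 probes by an SD of 0.221 to 0.263 within B6 groups and 0.316 to 0.412 within DBA/2 groups, and by 0.238 between the 2 arrays of 1 RNA. The B6 replicates thus differed about as much as repeated arrays, and how far their spread holds differences between mice was not tested. In such bulk RNA, fewer cells of a type and less RNA per cell cannot be told apart.

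Serum amyloid A proteins are small apolipoproteins carried on high-density lipoprotein. Saa1 and Saa2 are acute-phase genes of the liver, switched on in hepatocytes when interleukin-6, interleukin-1 and tumor necrosis factor act through STAT3, NF-kB and C/EBP proteins. Saa3 is known mainly from cells outside the liver, such as activated macrophages and adipocytes, whereas Saa4 is expressed constitutively in the liver.

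The 4 genes lie within 42316 bases of chromosome 7 in the order Saa3, Saa4, Saa1 and Saa2 (RefSeq, GRCm38.p6). Saa2 is on the plus strand and the others are on the minus strand, so that Saa1 and Saa2 point away from each other, with starts 8853 bases apart. The 250 bases before the start are shown for Saa3, the gene that was high in DBA/2 mice, and for the pair Saa1 and Saa2, which were high in B6 mice at 8 w. Each reads 5′ to 3′ on the strand of its gene, from chr7:46715677-46715926 for Saa3, chr7:46742981-46743230 for Saa1 and chr7:46751583-46751832 for Saa2, and capitals mark matches to the searched letters.
Saa3: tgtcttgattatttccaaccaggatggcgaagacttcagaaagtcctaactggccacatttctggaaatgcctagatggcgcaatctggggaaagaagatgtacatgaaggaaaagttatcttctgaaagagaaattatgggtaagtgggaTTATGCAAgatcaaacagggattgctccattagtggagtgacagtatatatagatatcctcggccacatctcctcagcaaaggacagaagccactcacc
Saa1: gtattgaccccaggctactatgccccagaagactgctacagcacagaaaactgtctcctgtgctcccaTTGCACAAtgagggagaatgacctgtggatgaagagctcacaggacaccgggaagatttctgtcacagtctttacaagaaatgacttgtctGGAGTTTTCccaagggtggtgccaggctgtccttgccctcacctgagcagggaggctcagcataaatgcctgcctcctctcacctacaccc
Saa2: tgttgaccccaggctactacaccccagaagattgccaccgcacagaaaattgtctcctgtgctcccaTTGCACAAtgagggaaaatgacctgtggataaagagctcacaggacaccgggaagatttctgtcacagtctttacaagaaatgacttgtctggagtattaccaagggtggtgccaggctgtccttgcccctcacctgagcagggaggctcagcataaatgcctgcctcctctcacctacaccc
The windows of Saa1 and Saa2 were identical in 238 of 251 aligned columns (94.8%), whereas the other pairs among the 4 genes reached 42.8% to 48.2%. Letters of 4 kinds, chosen after the sequences were seen, were searched on both strands in all 32851 windows of the table. The letters TTNNGCAA of C/EBP factors, found in 9.6% of all windows, matched all 4 genes, from 99 to 92 bases before the start of Saa3, 182 to 175 before Saa1, 183 to 176 before Saa2, and at 245 to 238 and 52 to 45 before Saa4. The letters GGNNNTTTC of NF-kB, found in 13% of all windows, matched Saa1 alone, from 91 to 83 bases before the start. Neither TTCNNNGAA of STAT factors (7.0% of all windows) nor the TATA box letters TATAAA (12.4%) occurred in these windows. A match is a run of letters and not a measured binding site, and no match says only that the letters are not in this window. The gene records of Saa1 and Saa3 reach 201 and 3939 bases beyond the start used here, so that other transcripts of these genes may start further upstream.

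**Figure D1:**
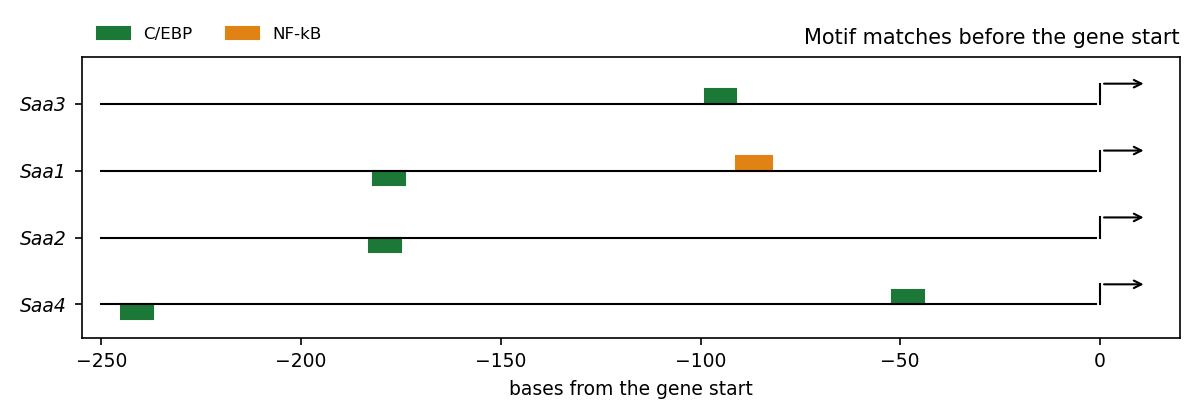
Matches to the C/EBP and NF-kB letters in the 250 bases before each start, drawn by distance from the start in bases (horizontal axis), with 1 row per gene and boxes above the line for the strand of the gene and below it for the other strand. Saa1 and Saa2 hold a C/EBP match at nearly the same distance, 182 and 183 bases upstream.

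The probes are given with their positions on mm8, the build of the files, all on chromosome 7. Saa3 is measured by probe A_51_P337308 (chr7:46580703-46580762, minus strand) and Saa2 by A_51_P166886 (chr7:46622207-46622266, plus strand). Saa1 has probe A_52_P318673 (chr7:46608742-46608801, minus strand) and probe A_51_P361650, whose mapped span of 473 bases (chr7:46608839-46609311, minus strand) is longer than the 60 bases of the others. Saa4 has probes A_51_P142529 (chr7:46597432-46597491) and A_52_P404329 (chr7:46596334-46596393), both on the minus strand. The files list a Saa1 transcript under the Saa3 probe, and a cDNA listed there is listed for Saa1 probe A_52_P318673 too. The RefSeq table gives Saa1 and Saa2 as synonyms of each other. Probe sequences were not used here, and how far each probe tells these near-identical genes apart was not tested. All 6 probes passed the filter on dim probes, which asked for 2 or more of the 18 samples to be well above background.

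Saa3 mRNA was low in both strains at 0 w and was then high in DBA/2 mice at every later week, with its highest level at 4 w. B6 mice had high Saa3 at 8 w and later, and signals not well above background at 4 w. The processed signal in DBA/2 mice was 32.1 and 25.3 at 0 w (well above background on 1 of the 2 arrays), 659 and 631 at 2 w, 5074 and 4956 by 4 w, 930 and 886 by 8 w, and 478 and 524 by 9 w. Every later sample exceeded both 0 w samples, and the 4 w pair stood above all others. The B6 signals were 78.0 at 0 w for replicate 1, 72.2 and 62.4 on the arrays of replicate 2, 144 at 2 w, 2.75 and 11.6 by 4 w, 2162 and 2087 by 8 w, and 1604 by 9 w. The B6 4 w samples were below all other samples of either strain.

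Log2 signals were set relative to the 75th percentile on the same array, and group levels and differences are given on that log2 scale with the standard error of the fit across all probes. The Saa3 level in DBA/2 mice was −4.07 ± 0.25 (SD, n = 2) at 0 w. It was 0.69 ± 0.02 at 2 w, reached 3.38 ± 0.01 by 4 w, and was 1.09 ± 0.004 by 8 w and 0.50 ± 0.04 by 9 w. Against 0 w, the DBA/2 level was 27.1-fold higher at 2 w and 174-fold higher by 4 w (log2 difference 7.45, SE 0.48). It was 35.8-fold and 23.7-fold higher by 8 w and 9 w. From 4 w to 8 w it was 4.87-fold lower (log2 difference −2.28, SE 0.48). These differences exceeded the replicate spread. Within slides, the 4 w difference from 0 w was 7.27 and 7.62. With another background correction, normexp, it was 5.49, and that at 8 w 3.30 in place of 5.16.

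The Saa3 level in B6 mice was −1.90 ± 0.13 at 0 w and −0.76 at 2 w (n = 1). It was −5.62 ± 1.43 by 4 w, 1.95 ± 0.01 by 8 w and 2.11 by 9 w (n = 1). Against B6 0 w, it was 2.21-fold higher at 2 w and at least 6.89-fold lower at 4 w. It was 14.5-fold higher at 8 w (log2 difference 3.86, SE 0.48, or 2.97 with normexp) and 16.1-fold higher in the 9 w sample. Here and below, "at least" marks a bound that sets a group without an array well above background at its arrays' lowest signal well above background. With the 1 sample of B6 2 w in place of 0 w, whose samples held hepatocyte RNA, the 8 w level was higher by 2.71 on the log2 scale. The B6 9 w sample, whose hepatocyte genes summed to 451, held Saa3 at the level of B6 8 w.

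Between strains at the same week, Saa3 in DBA/2 mice was 4.49-fold lower than in B6 mice at 0 w, 2.74-fold higher at 2 w and at least 267-fold higher by 4 w. It was then lower than in B6 mice by factors of 1.82 at 8 w and 3.06 by 9 w. The highest level was thus that of DBA/2 4 w, and the next were B6 9 w and B6 8 w. Below these came DBA/2 8 w, DBA/2 2 w and DBA/2 9 w, then B6 2 w, B6 0 w, DBA/2 0 w and B6 4 w. Of these neighbours, B6 9 w and 8 w, B6 8 w and DBA/2 8 w, DBA/2 8 w and 2 w, DBA/2 2 w and 9 w, and B6 2 w and 0 w differed by less than 2 standard errors of the fit. That error is pooled over all groups, and the Saa3 SD was 1.43 in B6 4 w, against 0.004 to 0.25 in the other groups of 2. B6 4 w had no array well above background and DBA/2 0 w had 1 of 2, so that the order of these groups rests on signals near background.

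**Figure D2:**
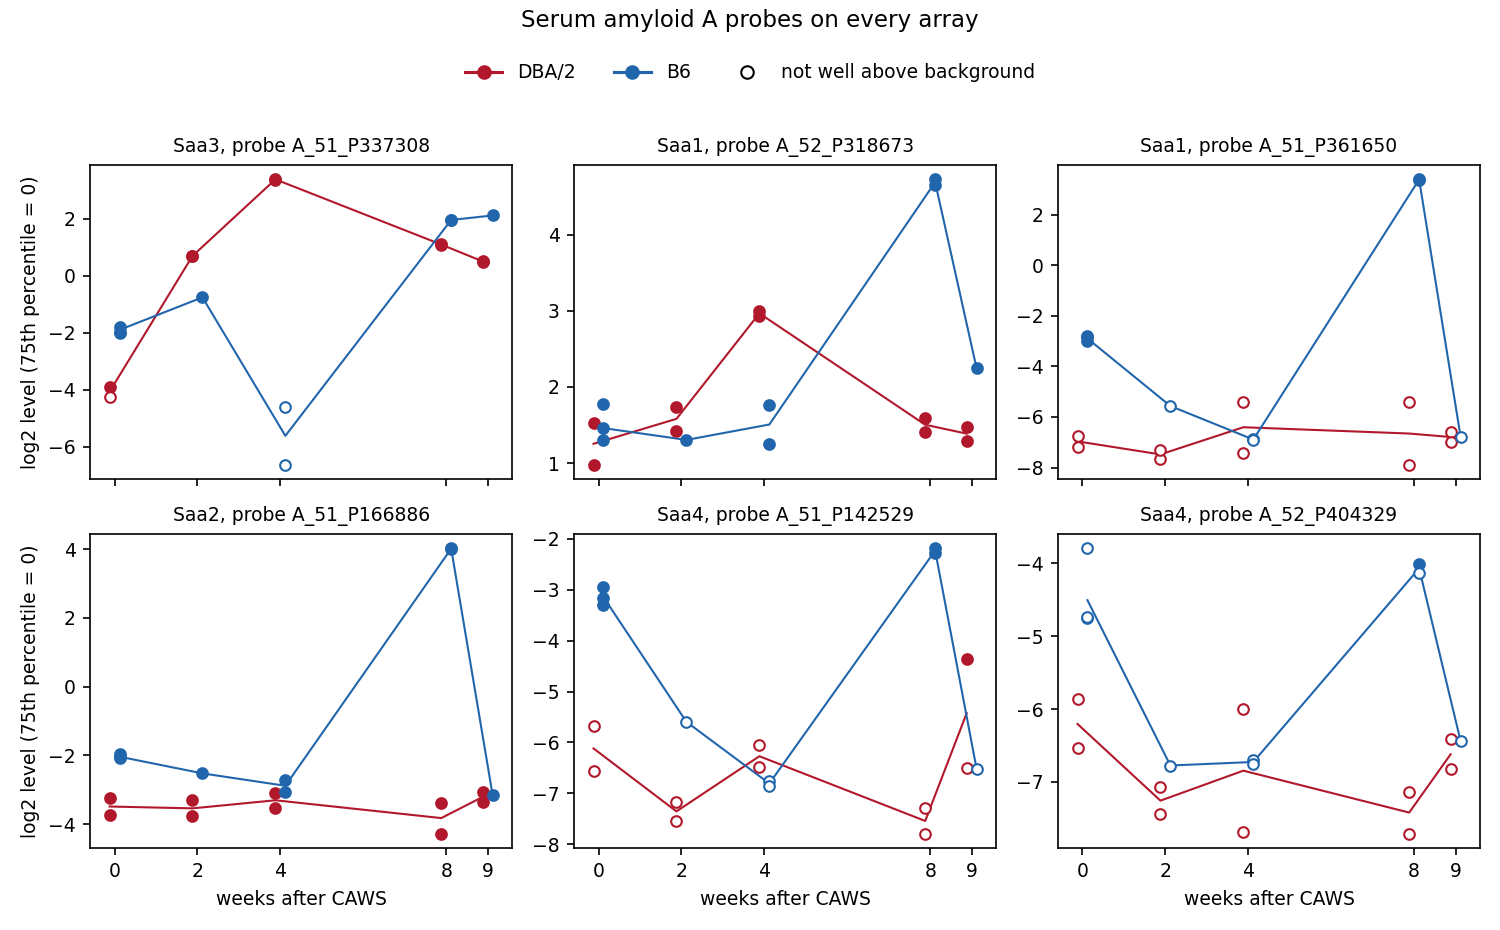
Log2 level of each serum amyloid A probe on each array (vertical axis, 0 is the array's 75th percentile) against weeks after CAWS, with lines through group means and open points for arrays not well above background. Saa3 is highest in DBA/2 4 w (3.38) and not well above background in B6 4 w, while Saa1, Saa2 and Saa4 are highest in B6 mice at 8 w.

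Saa1 and Saa2 were high in B6 mice at 8 w, which stood above the other 9 groups. The Saa2 signal was 8971 and 8761 in B6 8 w, 64.5, 70.1 and 64.3 on the B6 0 w arrays, and 21.4 to 56.4 in the other 8 groups. All 19 arrays were well above background for Saa2. The Saa1 probe A_51_P361650 read 5857 and 5725 in B6 8 w, 34.7, 39.7 and 36.8 in B6 0 w, and 1.85 to 11.3 elsewhere, where no array was well above background. By these probes both genes thus had the same order, with B6 8 w far above B6 0 w, and B6 0 w above all the rest.

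The Saa2 level was 66.4-fold higher in B6 mice at 8 w than at 0 w (log2 difference 6.05, SE 0.32) and 119-fold higher than at 4 w. By 9 w, in 1 sample, it was 144-fold lower than at 8 w. Saa1 by probe A_51_P361650 was 78.4-fold higher at 8 w than at 0 w (log2 difference 6.29, SE 0.76), at least 287-fold higher than at 4 w, and at least 266-fold lower at 9 w than at 8 w. The standard error for this probe is pooled with DBA/2 groups near background, where the SD reached 1.74 at 8 w. Against B6 0 w, the B6 4 w level was 1.80-fold lower for Saa2 and at least 3.67-fold lower for Saa1 by probe A_51_P361650. Of the B6 groups, only 0 w and 8 w held hepatocyte RNA, and its part in these differences was not tested. Against the 1 sample of B6 2 w, the 8 w level was at least 303-fold higher for Saa1 by that probe, and higher by 6.54 on the log2 scale for Saa2. With normexp, the 8 w differences from 0 w were 4.91 for Saa1 and 5.13 for Saa2. Within the slide that holds both weeks, the 8 w differences from 0 w were 6.19 for Saa1 and 6 for Saa2.

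In DBA/2 mice, the group means of Saa2 lay within −3.83 to −3.21 on the log2 scale, and each later week overlapped with 0 w. No DBA/2 array was well above background for Saa1 probe A_51_P361650. At both 8 w and 0 w, B6 but not DBA/2 samples held hepatocyte RNA. At 8 w, DBA/2 mice had 229-fold less Saa2 than B6 mice and at least 473-fold less Saa1 by probe A_51_P361650. At 0 w, they had 2.73-fold less Saa2 and at least 3.92-fold less Saa1 by the same probe. By the other Saa1 probe, described next, these Saa1 factors were 9.11 at 8 w and 1.15 at 0 w, with overlapping samples at 0 w.

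The other Saa1 probe, A_52_P318673, was well above background on all 19 arrays and gave a second pattern. Its signal in DBA/2 mice was 938 and 1381 at 0 w, 1108 and 1288 at 2 w, 3713 and 3839 by 4 w, 1162 and 1252 by 8 w, and 813 and 1055 by 9 w. In B6 mice it was 673, 776 and 867 on the 0 w arrays, 603 at 2 w, 647 and 956 by 4 w, 14070 and 14250 by 8 w, and 1757 by 9 w. It was therefore high both where Saa2 was high, in B6 mice at 8 w, and where Saa3 was highest, in DBA/2 mice at 4 w. Against 0 w, it was 9.39-fold higher in B6 mice at 8 w (log2 difference 3.23, SE 0.23) and 3.28-fold higher in DBA/2 mice at 4 w (log2 difference 1.72, SE 0.23), where slides gave 1.95 and 1.48. At 2 w, 8 w and 9 w the DBA/2 samples overlapped with those at 0 w. The 2 probes of Saa1 thus disagreed in DBA/2 mice at 4 w, where A_51_P361650 was not well above background. They disagreed in B6 mice too, although both were highest in B6 8 w. From 0 w to 4 w, A_52_P318673 changed by only 0.047 on the log2 scale, with overlapping samples. A_51_P361650 went from well above background to not well above it. In the 1 sample of B6 9 w, A_52_P318673 lay above B6 0 w by 0.783, while A_51_P361650 lay below B6 0 w. Which transcript the A_52_P318673 signal came from was not tested.

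Saa4 was dim in all groups. Probe A_51_P142529 read 116 and 118 in B6 8 w and 30.4, 28.7 and 32.7 on the B6 0 w arrays. Outside these groups it was well above background only on the array of DBA/2 9 w replicate 2, at 18.6, which is the array with the most outlier spots. The level in B6 mice at 8 w was 1.89-fold that at 0 w (log2 difference 0.92, SE 0.57, or −0.082 with normexp), within 2 standard errors, and at least 5.80-fold higher than at 4 w. The level at 4 w was at least 3.08-fold lower than at 0 w. Probe A_52_P404329 read 34.9 and 30.7 in B6 8 w and 10.2, 10.6 and 18.2 in B6 0 w, where 1 of the 2 and 1 of the 3 arrays were well above background, and its ratio of 8 w to 0 w was 1.35 (log2 difference 0.44, SE 0.48). The 2 arrays of 1 RNA differed by 0.95 on the log2 scale for this probe and by −0.04 to 0.36 for the other 5.

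The B6 8 w samples had higher Saa1 and Saa2 than the B6 0 w samples, with a lower summed signal of the hepatocyte genes. By the test given below, 4 of the 18 hepatocyte genes fell and 14 did not pass the threshold. Less hepatocyte RNA and lower levels of these genes within hepatocytes, Alb included, cannot be told apart. The 16 hepatocyte genes well above background on all arrays of both groups ranged from 0.303-fold to 1.22-fold at 8 w against 0 w, with a median of 0.58-fold, and Alb differed by −1.02 on the log2 scale. Set against the change of Alb in the same samples, the log2 change from 0 w to 8 w was larger by 7.31 for Saa1 probe A_51_P361650, 4.25 for A_52_P318673, 7.07 for Saa2, 4.87 for Saa3, and 1.93 and 1.45 for the Saa4 probes. The part of hepatocyte RNA in the Saa1, Saa2 and Saa4 levels was not tested. Saa3 was also high in the B6 9 w sample and in DBA/2 4 w, where the hepatocyte genes summed to 451 and to 501 to 835, and its r with Alb was 0.06 over the 18 samples, 0.43 over the 8 B6 samples and −0.25 over the 10 DBA/2 samples. Over the 18 samples, the r with Alb was 0.79 for Saa1 probe A_51_P361650, 0.47 for A_52_P318673, 0.68 for Saa2, and 0.85 and 0.87 for the Saa4 probes. Over the B6 samples these were 0.78, 0.41, 0.60, 0.96 and 0.92. These r values describe samples that share their strains and weeks.

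**Figure D3:**
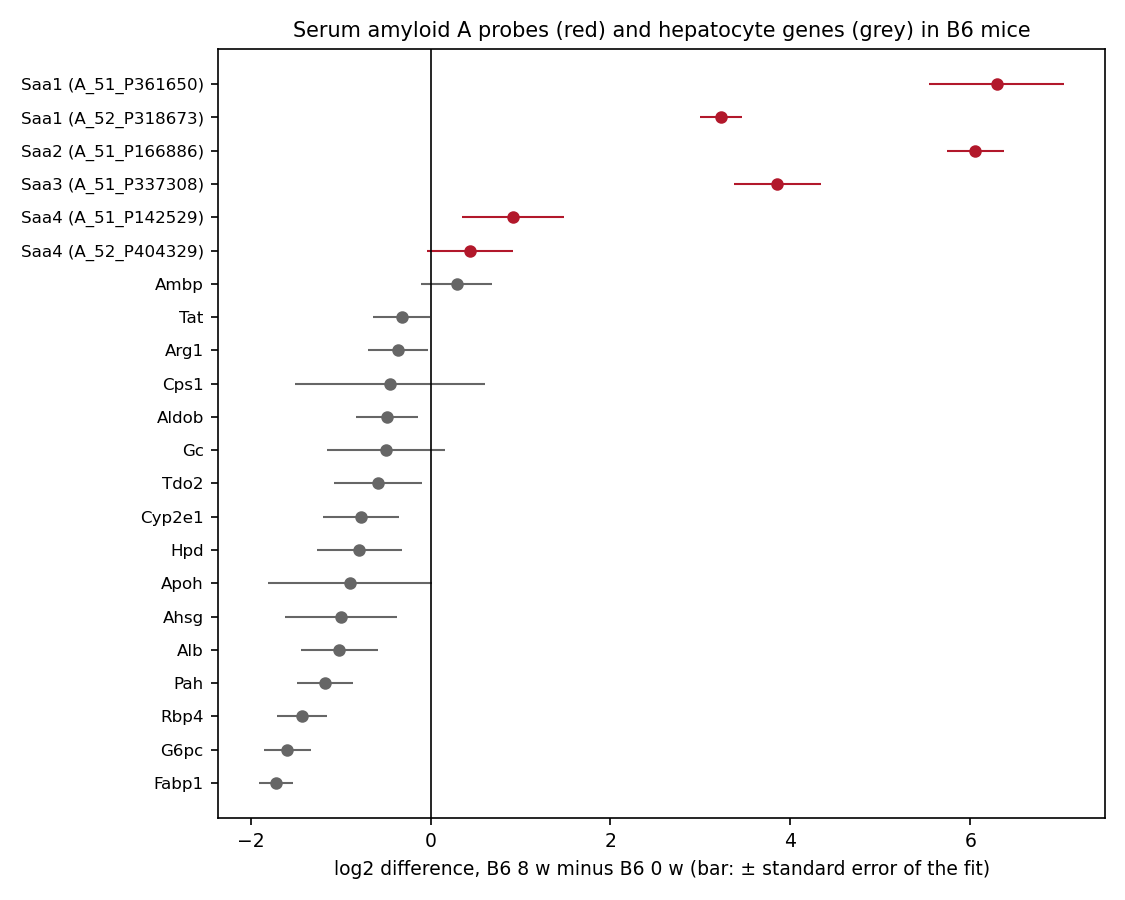
Log2 difference between B6 mice at 8 w and at 0 w (horizontal axis) for the 6 serum amyloid A probes (red) and for 16 hepatocyte genes well above background on all arrays of both groups (grey), with bars for the standard error of the fit. The hepatocyte genes lie between −1.72 and 0.29, while Saa1 and Saa2 lie between 3.23 and 6.29.

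**Figure D4:**
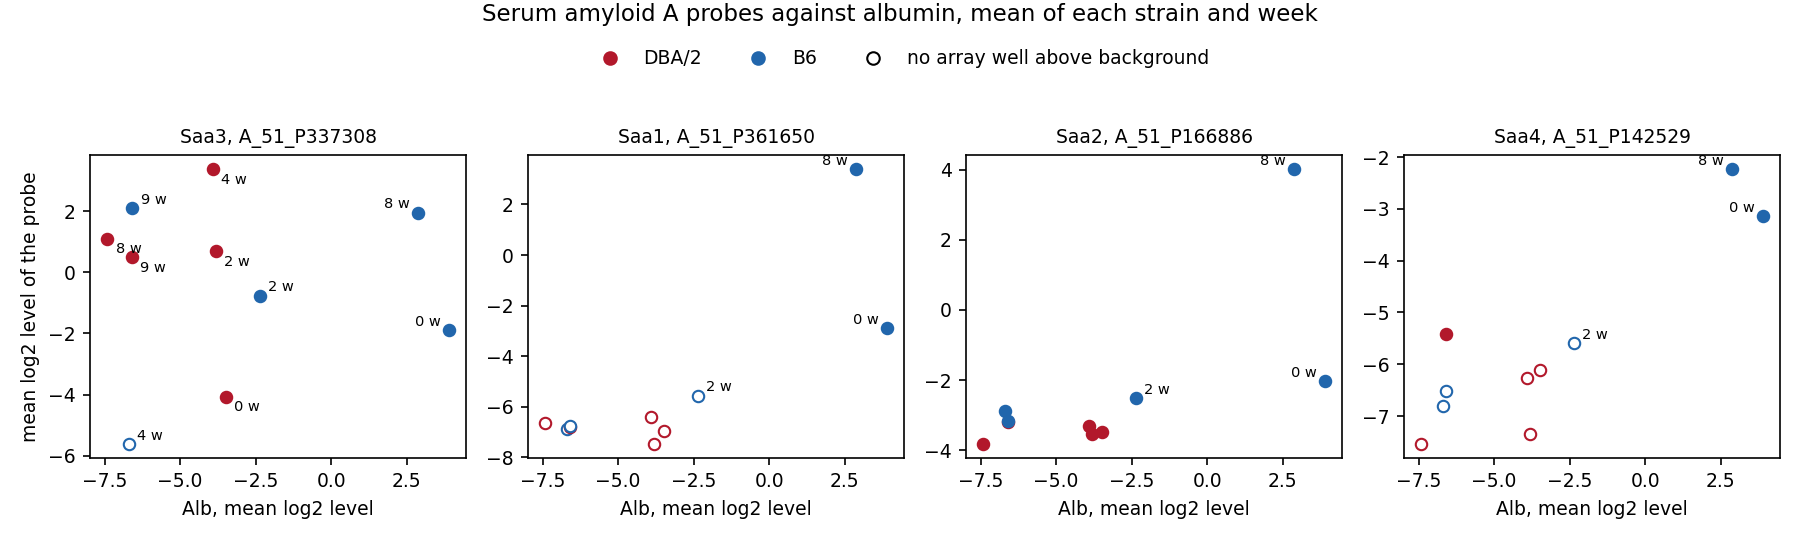
Log2 level of serum amyloid A probes (vertical axes) against that of Alb (horizontal axis) as means of each strain and week, with DBA/2 in red and B6 in blue, and with weeks written beside all points for Saa3 and beside those at higher Alb for the others. Only B6 0 w and 8 w lie at high Alb (3.89 and 2.87), where Saa2 differs by 6.05, and Saa3 is highest at low Alb in DBA/2 mice at 4 w.

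The probes most like Saa3 over the 18 samples by Pearson's r were those of Ms4a8a (0.955, well above background in 14 samples), Klf10 (0.907), Lrrfip1 (0.906), Timp2 (0.906) and Chsy1 (0.88). Ms4a8a encodes a membrane-spanning protein of the family of CD20, Klf10 a zinc finger factor induced by TGF-β, and Timp2 an inhibitor of matrix metalloproteases. The probes most like Saa1 probe A_52_P318673, the brightest of Saa1 and Saa2, were those of Tnfaip8 (0.904), Ndufv3 (0.845), Mt2 (0.834), Tmem19 (0.825) and Nek9 (0.819). Saa1 probe A_51_P361650 was most like Fga of fibrinogen (0.935) and Hpx (0.933), liver genes that were well above background in 4 samples. Saa2 was most like Mt2, the metallothionein gene (0.959), with the liver genes Fgl1 (0.892) and Orm2 (0.878) among its 5 most like, and its r with Saa1 probe A_51_P361650 was 0.949. Saa3 and Saa1 probe A_52_P318673 had an r of 0.55 over 18 samples and of 0.71 over the 10 DBA/2 samples.

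The genes around serum amyloid A were tested with limma over 22939 probes against 0 w of the same strain, which all weeks of a strain share, with a Benjamini-Hochberg adjusted p threshold of 0.05. Among all probes tested in DBA/2 mice, 7.90% rose and 7.82% fell at 2 w, and 7.58% rose and 7.24% fell at 4 w. At 8 w 10% rose and 14.0% fell, and at 9 w 13.4% rose and 14.3% fell. In B6 mice, 6.02% rose and 9.66% fell at 4 w, whereas 11% rose and 10.2% fell at 8 w. The median over all probes was between −0.18 and −0.03 on the log2 scale in these comparisons. The share of rises among the calls moved by over 10 percentage points with the scaling in all 6 of them. Among the calls in these lists, 5 set 2 groups against each other in which no array was well above background, namely Il6 in DBA/2 9 w and B6 4 w, Apoc4 in DBA/2 4 w and 8 w, and Serpina3k in DBA/2 8 w. The named genes of each list are those past the threshold with the largest changes.

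Of the cytokines, receptors and factors that induce serum amyloid A genes, 22 of 26 could be tested. In DBA/2 mice, where Saa3 was high, 6 rose and 1 fell at 2 w, and 10 rose with 0 falling at 4 w. By 8 w 11 had risen and 1 had fallen, and by 9 w 9 had risen and 1, Il6, had fallen. At 4 w the list's median was 0.44 on the log2 scale, and the largest rises were those of Il1b, the interleukin-1β gene (2.52, adjusted p = 1.02e-06), its receptor accessory chain Il1rap (2.08), the C/EBPδ gene Cebpd (1.76) and the tumor necrosis factor receptor gene Tnfrsf1a (1.39). The same 4 genes had the largest rises at 8 w, led by Il1b at 2.57. In B6 mice 7 rose and 0 fell at 8 w, when Saa1, Saa2 and Saa3 were all high, with Il1b at 2.93 (adjusted p = 1.06e-07), Cebpd at 2.38 and Il1rap at least 3.11-fold higher. The interleukin-1 receptor gene Il1r1, also called, was well above background on 1 of the 2 arrays at 8 w and on none at 0 w. At 4 w, when B6 mice had Saa3 not well above background, 4 rose and 1 fell, with Il1b at 1.86, Cebpd at 1.04 and Jak2, a kinase upstream of STAT3, at 0.42. The fourth, Il6, was not well above background in either week.

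Of 12 genes that restrain these signals, 7 rose and 0 fell in the DBA/2 comparison at every later week, with list medians of 0.46 to 0.60. At 4 w the largest rises in DBA/2 mice were those of the decoy receptor Il1r2 (2.31), the receptor antagonist Il1rn (1.86), the MAP kinase phosphatase Dusp1 (1.85) and the STAT3 inhibitor Socs3 (1.69). In B6 mice 6 rose and 1 fell at 4 w, and 7 rose and 3 fell at 8 w, where Il1rn was at least 4.71-fold higher and Socs3 rose by 2.52 (adjusted p = 1.06e-07).

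Of 11 genes for cell surface receptors of serum amyloid A proteins and their partners, 10 could be tested. In DBA/2 mice 6 rose at 2 w and 8 at every week from 4 w on, with 0 falling. Cd14, a co-receptor of Toll-like receptors, rose by 2.18 at 4 w (adjusted p = 1.01e-05), and Tlr4 and Tlr2 by 1.92 and 1.53. Fpr2, the formyl peptide receptor that binds serum amyloid A, rose by 2.56 at 8 w (adjusted p = 2.8e-07). In B6 mice 6 rose and 1 fell at 4 w, when the purinergic receptor gene P2rx7 fell by 1.64, and 8 rose and 1 fell at 8 w, when Fpr2 rose by 2.85. B6 2 w is 1 sample, so that tests against it, here and below, take its spread from the other groups. Against B6 2 w, 1 receptor gene rose and 3 fell at 4 w, and 6 rose and 1 fell at 8 w. On that reference 2 inducers rose at 4 w and 6 at 8 w with 0 falling, and of the restraining genes 4 rose and 0 fell at 4 w, and 7 rose and 2 fell at 8 w.

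Of 19 liver acute-phase genes tested, 1 rose and 1 fell in B6 mice at 8 w, when Saa1 and Saa2 were high, with a median of 0.60. These were Hpx, the hemopexin gene (1.63, adjusted p = 0.0487), and the α1-antitrypsin gene Serpina1d (−0.85). At 4 w 0 rose and 14 fell, with Fgg of fibrinogen at least 77.8-fold lower. Of the 18 hepatocyte genes, 16 fell at 4 w and 4 at 8 w against B6 0 w. With B6 2 w in place of 0 w, 15 of the 19 liver acute-phase genes and 14 of 16 hepatocyte genes rose at 8 w, and 2 and 4 fell at 4 w. In DBA/2 mice 1 to 2 rose and 0 to 2 fell at each week, among them Lbp, the lipopolysaccharide-binding protein gene, with a 4 w level at least 2.16-fold that of 0 w (adjusted p = 0.000873).

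Of 16 tested acute-phase genes that leukocytes or other tissues also express, 10 rose in DBA/2 mice at 2 w, 11 at both 4 w and 8 w, and 12 by 9 w, with 2 falling at 8 w and 0 at the other weeks. The complement genes Cfb and C4b led at 4 w, with Cfb at 8.32-fold or more of its 0 w level (adjusted p = 8.38e-07) and C4b higher by 3.22. In B6 mice 10 rose and 1 fell at 8 w, where the neutrophil protein gene Lcn2 was at least 8.64-fold higher and Mt2 rose by 3.66 (adjusted p = 8.13e-07). At 4 w 4 rose and 6 fell in B6 mice against 0 w, whose samples held hepatocyte RNA, with Cfb at least 14.6-fold lower. The list's median log2 difference at 4 w was −0.09 against B6 0 w and −0.29 against the 1 sample of B6 2 w.

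Of 17 genes of high-density lipoprotein, the particle that carries serum amyloid A, 13 could be tested. In B6 mice 0 rose and 10 fell at 4 w, with Apoa2, a structural apolipoprotein, at least 71.1-fold lower, and 0 rose and 3 fell at 8 w. These counts are set against B6 0 w, whose samples held hepatocyte RNA. At 4 w the list's median log2 difference was −3.07 against B6 0 w and −0.52 against the 1 sample of B6 2 w. Against B6 2 w, 7 rose and 0 fell at 8 w. The DBA/2 rises and falls were 0 and 1 at 2 w, 4 and 0 by 4 w, 3 and 2 by 8 w, and 2 and 1 by 9 w, with Apoc4, near background in DBA/2 mice, among the rises at 4 w and the falls at 8 w. Apoe, the apolipoprotein E gene, rose by 0.97 at 4 w (adjusted p = 3.33e-05).

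**Figure D5:**
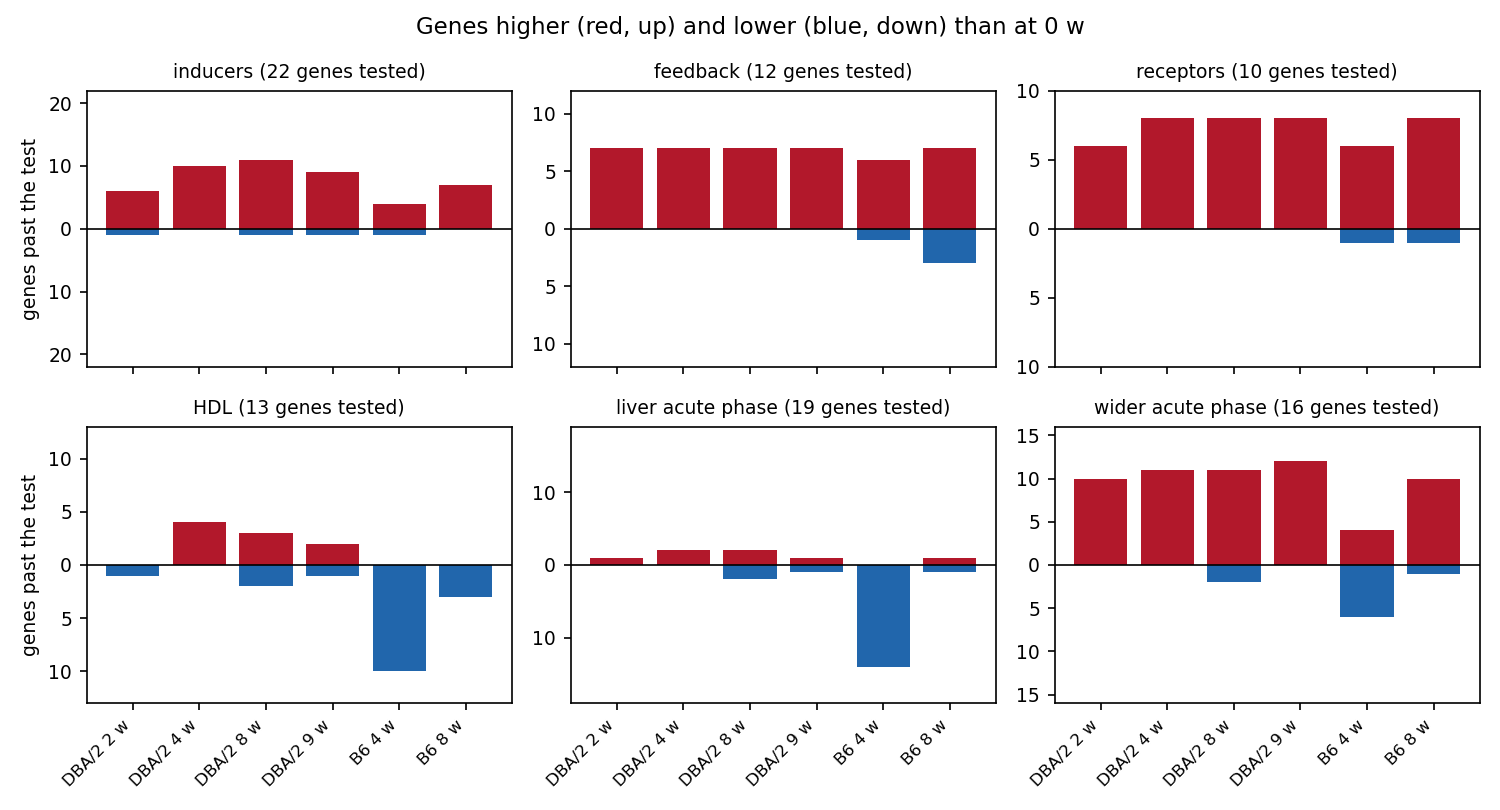
Number of tested genes of each list (vertical axis) that rose (red, upward) or fell (blue, downward) against 0 w of the same strain, by limma with an adjusted p under 0.05, in 6 comparisons. More inducer, feedback and receptor genes rose than fell in each comparison, while 14 liver acute-phase genes and 10 lipoprotein genes fell in B6 4 w. The B6 comparisons are set against B6 0 w, whose samples held hepatocyte RNA.

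Markers of other cells moved with Saa3 in some weeks and not in others. Of 12 macrophage genes tested, 1 rose at 2 w in DBA/2 mice, where Saa3 was 27.1-fold higher, and 8 rose at 4 w, 8 at 8 w and 9 at 9 w, with 0 falling. The summed scaled signal of the list's 15 genes in the DBA/2 4 w samples was 1956 to 2278, against 906 to 1279 at 0 w. In B6 mice 9 of the 12 fell at 4 w, where the sum was 775 to 861 and Saa3 was not well above background, and 6 of 11 fell with the 1 sample of B6 2 w as the reference. At 8 w in B6 mice, where Saa3 was high, 2 rose and 3 fell, with a median of −0.22 and a sum of 1310 to 1399, against 1478 to 1545 at 0 w. Of the macrophage genes, Cd163, the hemoglobin scavenger receptor gene, was at least 2.53-fold higher in the DBA/2 4 w samples, and the complement gene C1qa rose by 2.71. The brightest gene of the list, C1qb, was not higher, with a mean log2 level of 0.48 in DBA/2 4 w and 0.59 in DBA/2 0 w. Its replicates lay far apart, with processed signals of 475 and 959 in DBA/2 4 w and 511.5 and 1009 in DBA/2 0 w. Clec4f, a marker of liver macrophages, had no DBA/2 array well above background. Of 11 monocyte genes, 3 rose and 2 fell in DBA/2 mice at 2 w, and 10 rose at every DBA/2 week from 4 w on. In B6 mice 2 rose and 5 fell at 4 w, and 7 rose at 8 w. Of 13 neutrophil genes, 9 to 11 rose and 0 fell in all 6 comparisons, the B6 4 w comparison without measurable Saa3 included. The adipocyte list summed to 203 to 459 in all groups, the fibroblast list to 128 to 249 and the epithelial list to 48.5 to 183. The part of these cells in the Saa3 level was not tested.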

How the data were processed

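The authors labelled leukocyte RNA with Cy3, hybridized it to single-color arrays and deposited the output of Feature Extraction 9.5.3.1 for each array. Its processed signal is an intensity with local background and spatial trends removed within the array and very low values replaced by surrogates. The deposited value table holds the same intensity averaged per probe, unscaled between arrays. Here, control and outlier spots were left out, spots of a probe were averaged, and the 75th percentile of an array's log2 signals, over the 11536 probes that passed the software's background call on all 19 arrays, was subtracted. A probe entered the test if 2 or more of the 18 samples were well above background, which left 22939 probes. They were fitted by limma 3.58.1 under R 4.3.3 (10 group means, 8 residual degrees of freedom, prior 1.37), with Benjamini-Hochberg adjustment. A gene of a list is given by its probe with the highest mean level. The genes named are all Saa probes, up to 4 past the threshold with the largest change per list and comparison, Alb, the genes most like Saa3 and the brightest Saa1 or Saa2 probe. Names beyond these (Cd163, C1qa, C1qb, Clec4f, Apoc4, Serpina3k, Il6 at DBA/2 9 w, and the genes most like Saa2 and Saa1 probe A_51_P361650) were chosen after their values were seen. The 4 genes, the lists and the tests were chosen with earlier results of these data known. The paper names no test for the arrays. Promoter windows came from RefSeq (GRCm38.p6), read with Python 3.11.15 and aligned with Biopython 1.88. Alternatives covered background correction, scaling, filters, blocks and left-out samples. The number of arrays limits precision. The paper's qRT-PCR and histology were not analysed here.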

Additional observations from a re-analysis of the deposited data

Results flagged for a closer look

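At 4 w the Saa3 level moved in opposite directions in the strains, with a mean log2 change from 0 w of 7.45 in DBA/2 mice, higher in both samples, and of −3.71 in B6 mice, lower in both samples, a difference between the strains of 11.16 that was not tested. The B6 4 w arrays were not well above background for Saa3, so that the B6 value and the difference rest on signals near background.

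A probe for the serum amyloid A pseudogene, A_52_P525348, which belongs to none of the 4 genes, had a processed signal of 19.39 in DBA/2 4 w replicate 1 and was well above background on that array only. Replicate 2 of that group read 14.25 and was not well above background, and the other arrays read 1.94 to 5.77.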

How the results depend on the processing

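Across the scalings, filters, blocks and left-out samples tried, 42 of the values recomputed moved by more than the replicate spread or 1.5 times the count and 1 changed direction. Filters, the replicate block and left-out samples of other groups cannot move a probe difference. Leaving out a sample in turn gave 1.44 to 1.99 for Saa1 probe A_52_P318673 in DBA/2 mice at 4 w. With normexp background correction, Saa3 differed from 0 w by 5.49 in DBA/2 mice at 4 w, 3.30 at 8 w and 2.97 in B6 mice at 8 w, Saa1 probe A_51_P361650 by 4.91, Saa2 by 5.13 and Saa4 probe A_51_P142529 by −0.082 in B6 mice at 8 w, a change of direction in a setting whose median over all probes was −0.63. In the value table without scaling, whose median over all probes was 0.98, the B6 8 w differences were 4.88 for Saa3, 7.31 for Saa1, 7.08 for Saa2 and 1.94 for Saa4. With the 1 sample of B6 2 w in place of B6 0 w, chosen after seeing the data, they were 2.71 for Saa3 and 6.54 for Saa2, and the fit gave 8.97 for Saa1 and 3.36 for Saa4, whose B6 2 w array was not well above background, so that these levels were at least 303-fold and 6.11-fold higher.

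Of the 92 pathway genes tested, 42 rose and 0 fell in DBA/2 mice at 4 w, 42 rose and 7 fell at 8 w, and in B6 mice 20 rose and 33 fell at 4 w and 33 rose and 9 fell at 8 w. With normexp, 21 rose at 4 w and 23 rose and 0 fell at 8 w in DBA/2 mice, and 6 rose and 10 fell at 4 w and 16 rose and 3 fell at 8 w in B6 mice. In the value table, 11 fell in DBA/2 mice at 8 w, and 68 rose and 0 fell in B6 mice at 8 w. With B6 2 w as the reference, which takes its spread from the other groups, 7 rose and 13 fell at 4 w, and 54 rose and 4 fell at 8 w. Falls in B6 mice were 18 at 4 w with the filter at 9 samples and 14 at 8 w with a floor of 10. Falls in DBA/2 mice at 8 w were 3 with the percentile over all probes, 3 with quantile normalization, 4 without the filter and 12 with the slide as a random block. Left-out samples gave 4 to 7 there, with 4 without DBA/2 8 w replicate 1 or DBA/2 0 w replicate 2, and 0 to 1 at 4 w. The share of rises among all calls went from 11.8% to 85.8% over 8 scalings in DBA/2 mice at 9 w (48.3% as reported), from 12.8% to 86.4% at 2 w (50.3%), from 48.0% to 88.8% at 4 w (51.1%) and from 23.8% to 76.1% at 8 w (41.8%), and in B6 mice from 34.1% to 59.8% at 4 w (38.4%) and from 49.4% to 99.5% at 8 w (51.7%). The causes were not tested.

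The replicate block, which leaves the differences between groups of 2 as they are, gave 1 pathway gene falling in DBA/2 mice at 4 w, as with the slide block, and 10 at 8 w. Same-numbered samples deviated together with r of −0.03 to 0.83 in 28 group pairs, with a median of 0.18 and 23 of them over 0.1. Since not all were and the labels name no shared batch, the numbers were not taken to pair the samples. On all 19 arrays, though, replicate 1 was scanned on 1 day and replicate 2 on another, so that the replicate block is also a block for scan day. Within scan days, the difference from 0 w was 7.27 and 7.62 for Saa3 in DBA/2 4 w, which are the same arrays and values as within slides. In B6 8 w it was 3.76 and 3.95 for Saa3, 6.37 and 6.22 for Saa1 probe A_51_P361650 and 6.09 and 6.02 for Saa2. Groups of 1 or 2 arrays and signals near background limit the Saa4 and the DBA/2 Saa1 values most.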
